A study of Sus scrofa with 36 samples.

Results

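The genes described here are the pig Eph receptors, ephrins, semaphorins and plexins. They were taken by symbol alone, as every row of the deposited tables whose identifier has the form of an EPHA or EPHB receptor, an EFNA or EFNB ephrin, a semaphorin of classes 3 to 7, or a plexin of classes A to D. That gave 51 of 20683 genes: 14 Eph receptors, 8 ephrins, 20 semaphorins and 9 plexins. The rule uses no measured value.

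Eph receptors are receptor tyrosine kinases that are bound by ephrins on the surface of a neighbouring cell. A-type ephrins are held by a lipid anchor and B-type ephrins span the membrane, and both partners of a contact can signal. Semaphorins are secreted or membrane-bound proteins whose main receptors are the plexins, and most secreted class 3 semaphorins also need a neuropilin, NRP1 or NRP2, as co-receptor. Both systems are best known for steering growing axons, and in embryos they also act at somite boundaries, in migrating neural crest and in forming blood vessels, where ephrin-B2 marks arteries and EPHB4 marks veins.

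Bulk RNA-seq was measured in 36 libraries of pig cells in 11 groups. The study compared clonal induced pluripotent stem cell (iPSC) lines with fibroblasts, and followed a further clone through directed differentiation. The first set held fibroblasts (n = 4), clone 1 (labelled PiPS-EP1 minusPD c4 p11, n = 3, replicates 2 to 4), clone 2 (PiPS-EP5 minusPD minusA83 c12 p10, n = 4) and clone 3 (PiPS-EP5 minusPD minusA83 c18 p15, n = 4). The second set held 3 libraries at each stage of clone 8. These stages were undifferentiated cells with the MEF feeder removed (day 0), primitive streak or mesendoderm made with E8A100ch3 (day 1), presomitic mesoderm (PSM) made in S1LDN medium (day 2), and somite cells made in S2LDN medium (day 3). Endothelial cells (day 6), beating cardiomyocytes (day 9) and neuro progenitor cells (day 24) completed the series. All differentiated groups came from 1 clone, and the labels do not say whether replicates were separate cultures, so the tests measure the spread between these libraries only.

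Total estimated counts ran from 1845333 (neural progenitor replicate 3) to 69879325 (clone 2 replicate 3), and fibroblast replicates 3 and 4 were shallower than replicates 1 and 2. The library labelled cardiomyocyte replicate 2 and the library labelled neural progenitor replicate 1 went against their labels. The summed level of 9 cardiac markers was 18292, 46.9 and 16478 TPM (RSEM's length-scaled share of transcripts, on which all levels here are given) in the libraries labelled cardiomyocyte replicates 1, 2 and 3, and 17908, 61.5 and 147 TPM in those labelled neural progenitor replicates 1, 2 and 3. The sum of 9 neural markers ran the other way, at 101, 7154 and 77.6 TPM and at 104, 7994 and 7344 TPM. Of the 51 genes, 47 were nearer to neural progenitor replicates 2 and 3 than to cardiomyocyte replicates 1 and 3 in the library labelled cardiomyocyte replicate 2, as were 79.0% of 13002 genes at 1 TPM or more. In the library labelled neural progenitor replicate 1, 48 of the 51 were nearer to cardiomyocyte replicates 1 and 3, as were 89.8% of all such genes. The comparisons that use these groups are given as labelled and without these 2 libraries. Fibroblast replicates 1 and 2 differed from replicates 3 and 4 in marker levels as well as in depth. ACTA2 was at 26783, 28004, 9721 and 10864 TPM in fibroblast replicates 1 to 4. THY1 was at 607, 643, 158 and 191 TPM, and COL1A2 at 7035, 6446, 15859 and 15027 TPM. At somite day 3 the 6 somite markers summed to 24.4 to 32.7 TPM, below the 61.8 to 79.8 TPM of the endothelial group, while 4 smooth muscle markers summed to 4521 to 5435 TPM there and endothelial markers were at 717 to 813 TPM at day 6.

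Most of the 51 genes were read somewhere in the series. A group mean of at least 1 TPM was reached by 26 of them in fibroblasts, by 33 to 38 in clones 1 to 3, by 36 to 40 in clone 8 from day 0 to day 6, by 45 in the cardiomyocyte group and by 46 in the neural progenitor group as labelled. Without the 2 doubted libraries these last counts were 34 and 44. Over all genes, 54.0% reached this level in fibroblasts, 55.6 to 57.3% in clones 1 to 3 and 54.8 to 60.3% in clone 8 from day 0 to day 6. As labelled, 61.6% did so in the cardiomyocyte group and 63.3% in the neural progenitor group. The neural progenitor group held the highest mean for 20 genes as labelled and for 27 without the 2 libraries, fibroblasts for 10 and 8, and the endothelial group for 9 and 8. The group with the highest mean was not counted over all genes. Averaged over the 11 group means, the plexin PLXNB2 led at 76.0 TPM, followed by SEMA4D at 34.7, EFNB2 at 30.7, EFNA1 at 26.8, SEMA6A at 25.4, PLXNA1 at 22.8 and EPHA3 at 21.9 TPM. Without the 2 libraries these averages moved little (SEMA6A 27.3 and EPHA3 22.3 TPM), but the cardiomyocyte mean of SEMA6A went from 37.5 to 1.01 TPM and that of EPHA3 from 76.5 to 18.3 TPM. EPHA8 stayed at or below 0.82 TPM in every library and had too few counts for any test.

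**Figure D1:**
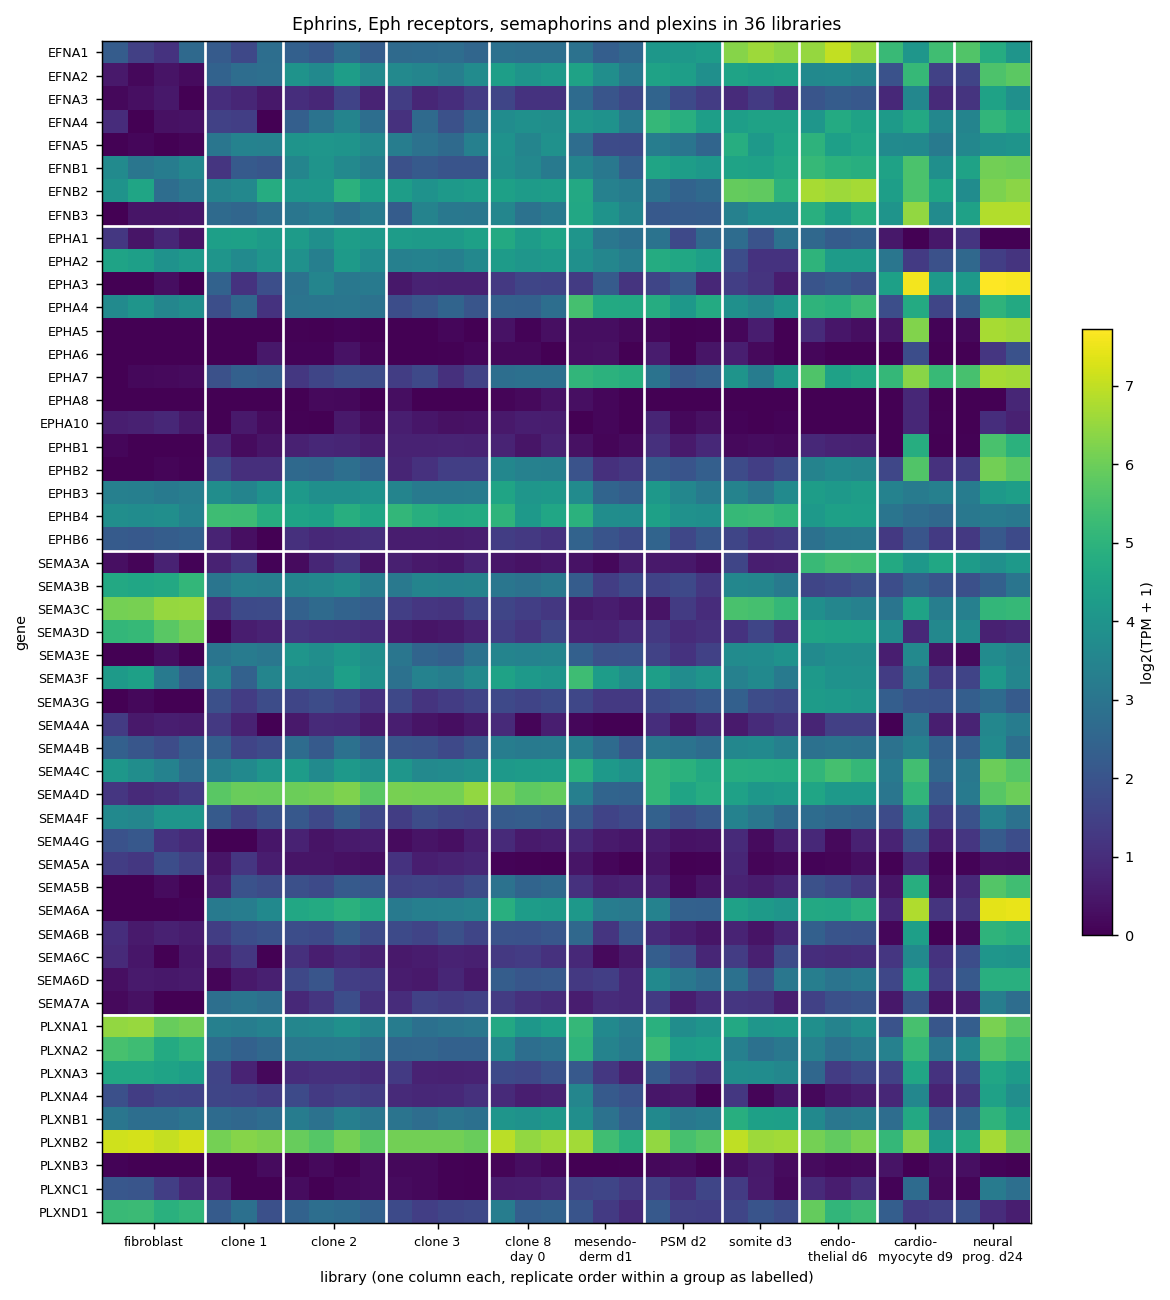
Level of the 51 genes (rows, grouped by family) in the 36 libraries (columns, grouped by sample group), coloured by log2(TPM + 1). The 2 libraries whose pattern goes against their label are visible as exchanged columns in the cardiomyocyte and neural progenitor groups.

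On the Sscrofa11.1 assembly, as RefSeq annotates it, all 51 symbols were matched to a protein-coding gene. The A-type ephrins EFNA1, EFNA3 and EFNA4 lie next to each other on chromosome 4, with 36.5 kb between EFNA1 (94666457 to 94673442) and EFNA3 (94709941 to 94719350) and 11.4 kb between EFNA3 and EFNA4 (94730790 to 94735578). Chromosome 9 holds SEMA3D, SEMA3A, SEMA3E and SEMA3C in that order, between 95280637 and 99432683. The neighbours EFNA1 and EFNA3 differed in level, since at day 6 EFNA1 was at 90.3, 129 and 90.7 TPM and EFNA3 at 3.13, 3.79 and 3.35 TPM. SEMA3D and SEMA3A, 449 kb apart, were both low on day 0 and both high on day 6.

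The comparison of clones 1 to 3 with fibroblasts asked which of these genes differ between the reprogrammed lines and fibroblasts. Every plexin that passed the test was lower in the clones, while most ephrins and Eph receptors that passed were higher, and semaphorins were split. Of 49 genes tested, 36 passed at an adjusted p under 0.05 (edgeR quasi-likelihood test, Benjamini-Hochberg over all genes), 19 higher and 17 lower. Over all 14660 genes tested 74.6% passed, 38.6% higher and 35.9% lower, so 36 of 49 is about the share of any genes. By family, 7 of 9 plexins were lower and 0 higher, 7 Eph receptors were higher and 3 lower of 12 tested, 5 ephrins were higher and 1 lower of 8, and 7 semaphorins were higher and 6 lower of 20. The median log2 change over the tested genes was 0.26 against 0.11 over all genes. In bulk RNA, fewer cells of a type and less RNA per cell cannot be told apart, here and below.

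PLXNA1, a receptor of secreted semaphorins, was at 88.2, 90.9, 60.3 and 66.8 TPM in fibroblast replicates 1 to 4, against a lowest, median and highest value of 6.26, 9.24 and 13.7 TPM in the 11 clone libraries. All fibroblast libraries lay far above all clone libraries, and the log2 change was -3.23 ± 0.14 (SE; adjusted p = 1.2e-12). PLXNA2 went from 44.0, 39.5, 25.6 and 30.7 TPM to 4.23 to 7.69 TPM (median 5.10), a log2 change of -2.86 ± 0.15 (adjusted p = 1.4e-11). PLXNA3 went from 23.9, 23.9, 21.4 and 19.2 TPM to 0.13 to 1.99 TPM (median 0.95), a log2 change of -4.69 ± 0.36 (adjusted p = 2.3e-09). Neither gene overlapped between fibroblasts and clones. PLXND1, the receptor that SEMA3E binds directly, stood at 36.4, 37.2, 28.7 and 32.9 TPM in fibroblasts and at 1.68 to 6.18 TPM in the clones (median 3.67), with a log2 change of -3.41 ± 0.17 (adjusted p = 7.4e-12). PLXNB2, the most abundant plexin in each of these 4 groups, fell less, from 142, 148, 131 and 149 TPM to 50.9 to 78.7 TPM (median 66.2; log2 change -1.25 ± 0.10, adjusted p = 4.6e-09). PLXNB1, a receptor of SEMA4D, did not pass and overlapped, at 5.91 to 7.16 TPM in fibroblasts and 5.0 to 9.15 TPM in the clones. PLXNA4 passed narrowly at -0.71 ± 0.19 and no longer passed without fibroblast replicate 1 (-0.45) or with fibroblast replicates 3 and 4 alone (-0.39).

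Class 3 semaphorins changed in both directions. SEMA3C was at 68.3, 69.97, 88.7 and 90.6 TPM in fibroblasts and at 1.08 to 5.41 TPM in the clones (median 2.34), a log2 change of -5.24 ± 0.16 (adjusted p = 1.1e-14). SEMA3D was at 33.3, 34.8, 52.5 and 64.7 TPM against 0.01 to 1.28 TPM (median 0.63), a log2 change of -6.38 ± 0.33 (adjusted p = 8.7e-12). These secreted ligands were high in every fibroblast library and low in every clone library, and SEMA3B (-1.57 ± 0.13) also fell. SEMA3E did the opposite: fibroblast replicate 3 held 4 counts (0.23 TPM) and the other fibroblast libraries none, against 4.08 to 15.8 TPM in the clones (median 7.29; log2 change 8.13 ± 0.57, adjusted p = 6.1e-10). SEMA3G was likewise higher in the clones (1.21 to 2.68 TPM against at most 0.12 TPM in fibroblasts).

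Of the membrane-bound semaphorins, SEMA4D, which binds B-type plexins, was the most abundant in the clones. Its level was 1.31, 0.91, 1.04 and 1.48 TPM in fibroblasts and 52.7 to 87.0 TPM in the clones (median 65.4), a log2 change of 5.62 ± 0.16 (adjusted p = 6.0e-15). SEMA6A, a ligand of PLXNA2 and PLXNA4, had 1 count in all 4 fibroblast libraries together and was at 7.82 to 29.3 TPM in the clones (median 10.1). The ratio of depth-scaled counts was 4358, with a 95% Poisson interval on that 1 count from 782 to 172127, which covers counting error only. No clone library of either gene came near a fibroblast library. SEMA5B (3 fibroblast counts in all, clones 0.65 to 3.60 TPM) and SEMA7A (3.85 ± 0.57) were also higher in the clones, and SEMA4F (-2.50 ± 0.17), SEMA4G (-3.18 ± 0.62) and SEMA5A (-1.80 ± 0.30) lower. SEMA4G no longer passed with fibroblast replicates 3 and 4 alone.

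**Figure D2:**
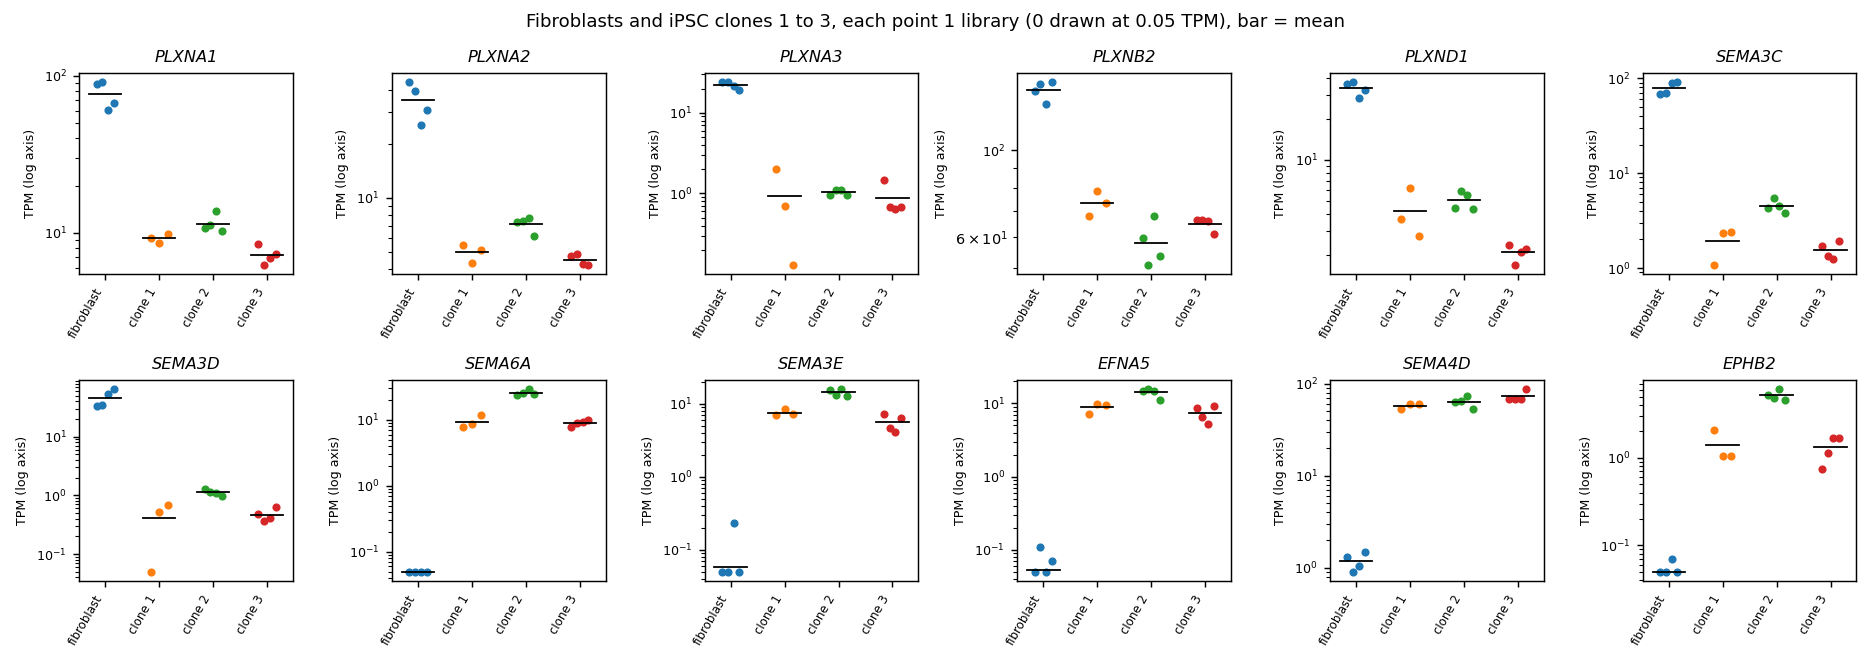
TPM per library (log axis, points; bars are group means, and a value of 0 is drawn at 0.05 TPM) of 12 plexins, semaphorins, ephrins and Eph receptors in fibroblasts and clones 1 to 3. All points of the plexins, SEMA3C and SEMA3D lie higher in fibroblasts than in the clones, and all points of SEMA6A, SEMA3E, EFNA5, SEMA4D and EPHB2 lie lower.

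Among the ephrins, EFNA5 had 0.03, 0.11, 0 and 0.07 TPM in fibroblasts and 5.30 to 15.7 TPM in the clones (median 9.58; log2 change 7.37 ± 0.35, adjusted p = 3.2e-12). EFNA2 (4.87 ± 0.35), EFNB3 (4.95 ± 0.59), EFNA4 (2.66 ± 0.93) and EFNA3 (2.19 ± 0.69) rose as well, and EFNB1 was lower (-1.1 ± 0.21), although not in clone 2. EFNB2 and EFNA1 did not pass: EFNB2 was at 14.8, 22.2, 5.72 and 7.41 TPM in fibroblasts and at 10.03 to 30.2 TPM in the clones, so the groups overlapped. Among the receptors, EPHA1 was at 1.39, 0.35, 0.78 and 0.32 TPM in fibroblasts and at 13.5 to 19.9 TPM in the clones (log2 change 4.32 ± 0.32, adjusted p = 1.3e-09). EPHB2 and EPHA3 had 3 counts each over the 4 fibroblast libraries; in the clones EPHB2 was at 0.75 to 6.09 TPM, a count ratio of 377 (95% interval 129 to 1827), and EPHA3 at 0.42 to 10.4 TPM, a ratio of 225 (77.0 to 1091). EPHA7 (4.75 ± 0.51), EPHB1 (3.67 ± 0.78) and EPHB4 (1.07 ± 0.16) were higher, and EPHA4 (-1.76 ± 0.26), EPHB6 (-2.41 ± 0.51) and EPHA2 (-0.71 ± 0.17) lower. EPHA6 had no count in fibroblasts and passed at a level of at most 0.41 TPM in the clones, at least 8.62-fold higher when fibroblasts are given a floor of 3 counts over the group. That call was lost without fibroblast replicate 1 or 2, without clone 1 replicate 4, with fibroblast replicates 1 and 2 or 3 and 4 alone and with a replicate block. EFNA3 and EPHA2 no longer passed with fibroblast replicates 3 and 4 alone. EFNA4 no longer passed with fibroblast replicates 1 and 2 alone or with a replicate block.

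Both neuropilins fell with the A-type and D-type plexins. NRP1 averaged 52.3 ± 12.5 TPM in fibroblasts (SD, n = 4) and 2.80 ± 1.65 TPM over the 11 clone libraries (log2 change -4.62 ± 0.16 SE), and NRP2 86.3 ± 2.21 and 2.91 ± 1.59 TPM (-5.24 ± 0.14). Summed per library, the 4 A-type plexins averaged 136 TPM in fibroblasts and 17.0, 21.4 and 13.5 TPM in clones 1, 2 and 3.

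Clones 1 to 3 also differed from each other, and clone 2 had the highest level for most of the genes that differed. Of 49 genes, 15 passed the test of any difference among the 3 clones (3 Eph receptors, 3 ephrins, 6 semaphorins and 3 plexins), where 11.6% of all genes passed. Clone 2 had the highest level for 10 of the 15, clone 1 for 4 and clone 3 for 1. The highest clone was not counted over the 1704 genes of all that differed, so these numbers have no background share beside them. Of these calls, 8 held whichever library was left out: SEMA6A, EFNB1, EPHA3, SEMA3C, EPHB2, SEMA6D, SEMA7A and PLXND1. Clone 3 replicates 2 and 3 were much more alike than the other clone 3 pairs. With these 2 libraries summed fewer genes passed, the 8 among them. SEMA6A was at 7.90, 8.73 and 11.7 TPM in clone 1, at 23.9, 25.3, 29.3 and 24.6 TPM in clone 2 and at 7.82, 9.05, 9.27 and 10.1 TPM in clone 3 (adjusted p = 0.00018). EPHA3 was at 4.37, 1.2 and 2.59 TPM in clone 1, at 6.56, 10.4, 7.47 and 7.92 TPM in clone 2 and at 0.42, 0.66, 0.63 and 0.63 TPM in clone 3 (adjusted p = 0.00047). For both genes every clone 2 library lay above every library of the other clones. EFNB1, an X-linked B-type ephrin, was at 1.29, 3.52 and 3.18 TPM in clone 1 and at 2.78, 3.57, 3.04 and 3.00 TPM in clone 3, but at 10.5, 15.02, 11.4 and 8.70 TPM in clone 2, which overlapped the 7.26 to 11.9 TPM of fibroblasts (adjusted p among clones = 0.00032). Of the 8 genes, only SEMA7A was highest outside clone 2, with 6.01, 6.98 and 6.05 TPM in clone 1 and 0.87 to 2.57 TPM in clones 2 and 3 (adjusted p = 0.011). NRP1 and NRP2 also differed among the clones.

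In clone 8, mesendoderm replicate 1 and PSM replicate 1 stood apart within their groups. Of 36 genes at a group mean of 1 TPM or more, 33 were highest in mesendoderm replicate 1 (91.7%, against 59.3% of 11338 genes), by a median of 1.00 on the log2 scale against 0.25 over all genes. In PSM replicate 1 it was 30 of 37 (81.1%, against 55.2% of 11511 genes). Counts for days 1, 2, 3 and 6 are therefore also given without these libraries. The comparisons of days 1, 6, 9 and 24 with day 0 share the day 0 libraries, and consecutive days share the libraries of the day between them.

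From day 0 to day 1, as pluripotent cells were taken to streak or mesendoderm, EPHA4 and EPHA7 rose steeply and no semaphorin rose. Of 47 genes tested, 26 passed, 8 higher and 18 lower, where 40.1% of 13597 genes passed, 20% higher and 20.1% lower. The share of lower genes, 18 of 47, is above the background, and the median log2 change was -0.33 against 0.00 over all genes. All 9 semaphorins that passed were lower, of 20 tested. Of 11 Eph receptors 3 were higher and 5 lower, of 8 ephrins 2 and 1, and of 8 plexins 3 and 3. Without mesendoderm replicate 1 and PSM replicate 1, 8 were higher and 24 lower, and 25 of the 26 calls were kept. Leaving out each library in turn kept 15 of the 26, and those lost in some repeat included PLXNA2, PLXNB1, PLXNB2, SEMA3D, SEMA6A and SEMA6D.

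EPHA4, a receptor for ephrins of both types, was at 4.25, 4.12 and 5.93 TPM on day 0 and at 42.6, 24.6 and 24.2 TPM on day 1 (log2 change 2.88 ± 0.23, adjusted p = 7.1e-09). EPHA7, another A-type receptor, went from 5.88, 6.22 and 6.24 TPM to 33.1, 30.3 and 27.8 TPM (2.55 ± 0.26, adjusted p = 1.9e-07). Neither group overlapped. SEMA4D went the other way, from 68.8, 55.3 and 59.1 TPM to 9.18, 4.63 and 4.33 TPM (-3.12 ± 0.19, adjusted p = 1.9e-10), with all day 1 libraries far below day 0. EPHB2 (-2.25 on the log2 scale), SEMA5B (-2.59), EFNA5 (-1.73), SEMA3C (-1.69), SEMA3E (-1.53) and PLXND1 (-1.46) were also lower, and EFNB3 (1.1), PLXNC1 (1.84) and PLXNA4 (3.15) higher. PLXNA2 passed at 1.25 ± 0.33, but its day 1 values of 31.9, 9.92 and 8.17 TPM rest on replicate 1: without it the log2 change was 0.54 and the call was lost. NRP1 rose from 4.12 ± 0.58 to 77.4 ± 27.3 TPM (SD, n = 3; log2 change 4.45 ± 0.20 SE).

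From day 1 to day 2, mesendoderm to presomitic mesoderm, EPHA7 fell back and SEMA4D partly returned. Of 47 genes 22 passed, 14 higher and 8 lower, where 26.2% of all genes passed, 12.6% higher and 13.5% lower. The 14 higher genes exceed the background share, with a median log2 change of 0.25 against -0.03. They were 4 Eph receptors, 4 ephrins and 6 semaphorins, while 2 Eph receptors, 2 ephrins, 3 semaphorins and 1 plexin were lower. Without the 2 libraries that stood apart the counts were 18 higher and 6 lower, with 19 of 22 calls kept, and 16 held whichever library was left out.

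EPHA7 was at 6.65, 3.55 and 4.28 TPM on day 2, below all day 1 libraries (log2 change -2.73 ± 0.27, adjusted p = 1.8e-07), whereas EPHA4 was at 26.7, 16.2 and 25.5 TPM and did not pass. SEMA4D was at 33.9, 21.9 and 26.7 TPM, between the day 1 and day 0 ranges (2.16 ± 0.19, adjusted p = 4.2e-08). Among ephrins, EFNA1 went from 6.54, 3.95 and 4.94 TPM to 16.02, 16.5 and 18.4 TPM (1.65 ± 0.24, adjusted p = 2.9e-05), and EFNB1 from 10.24, 7.60 and 4.03 TPM to 21.8, 18.6 and 16.4 TPM (1.39 ± 0.21, adjusted p = 4.3e-05). Both were higher in every day 2 library than in any day 1 library. EFNB3 went down from 23.6, 14.7 and 10.3 TPM to 3.43, 3.69 and 3.73 TPM (-2.03 ± 0.28, adjusted p = 1.3e-05), and PLXNA4 from 10.6, 3.59 and 2.83 TPM to 0.37, 0.45 and 0.03 TPM (-4.44 ± 0.67, adjusted p = 4.9e-05). SEMA6D was higher by 2.59 ± 0.31 and SEMA6B lower at -2.45 ± 0.46. EFNB2 was at 24.2, 9.47 and 8.42 TPM on day 1 and at 6.51, 4.51 and 5.24 TPM on day 2 (-1.35 ± 0.33), a call that was lost without mesendoderm replicate 1 (-0.83).

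From day 2 to day 3, presomitic mesoderm to somite medium, EPHA2 fell while SEMA3C, EFNB2 and EFNA1 rose. Of 47 genes 28 passed, 15 higher and 13 lower, where 51.2% of all genes passed, 26.6% higher and 24.5% lower. By family 2 Eph receptors were higher and 6 lower, 4 ephrins higher and 2 lower, 6 semaphorins higher and 3 lower, and 3 plexins higher and 2 lower. The median log2 change was -0.08 against 0.05 over all genes. Without the 2 libraries that stood apart, 15 were higher and 9 lower, and 24 of 28 calls were kept, while 21 held whichever library was left out.

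EPHA2, a receptor for A-type ephrins, was at 26.0, 23.5 and 19.7 TPM on day 2 and at 2.54, 1.18 and 1.21 TPM on day 3 (log2 change -4.04 ± 0.26, adjusted p = 1.7e-10). Its ligand EFNA1 was at 79.1, 96.1 and 83.8 TPM on day 3, several times its day 2 level (1.89 ± 0.21, adjusted p = 3.2e-07). EFNB2 was at 58.5, 56.6 and 30.4 TPM against 6.51, 4.51 and 5.24 TPM (2.92 ± 0.32, adjusted p = 2.9e-07). No library of these 3 genes overlapped between the days. SEMA3C changed most, from 0.34, 1.51 and 0.96 TPM to 44.8, 42.2 and 34.0 TPM (5.34 ± 0.30, adjusted p = 2.8e-11). SEMA3E, on the same chromosome, rose from 1.86, 1.17 and 1.8 TPM to 12.3, 12.7 and 14.4 TPM (2.74 ± 0.19, adjusted p = 5.4e-10). PLXNA3 (2.28 ± 0.41) and SEMA3B (2.24 ± 0.31) were also higher, PLXNA2 (-1.90 ± 0.34), EPHA4 (-1.01 ± 0.22) and SEMA3F (-0.89 ± 0.26) lower. NRP2 rose at the same step (2.18 ± 0.26). The somite libraries had smooth muscle marker sums of 4521 to 5435 TPM against 53.95 to 60.02 TPM at day 2. Most of the day 3 sum was TAGLN at 3426 to 4080 TPM and ACTA2 at 788 to 1020 TPM. CNN1 was at 303 to 332 TPM and MYH11 only at 4.23 to 4.55 TPM. Cardiac markers summed to 289, 276 and 309 TPM on day 3, against 22.8 to 67.4 TPM on day 2. Endoderm markers summed to 1463, 1534 and 1149 TPM on day 3, most of it APOA1 at 1134 to 1522 TPM. Their sum was 693.5 to 816 TPM on day 2 and 996 to 1272 TPM on day 0. The part of other cells in these changes was not tested.

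**Figure D3:**
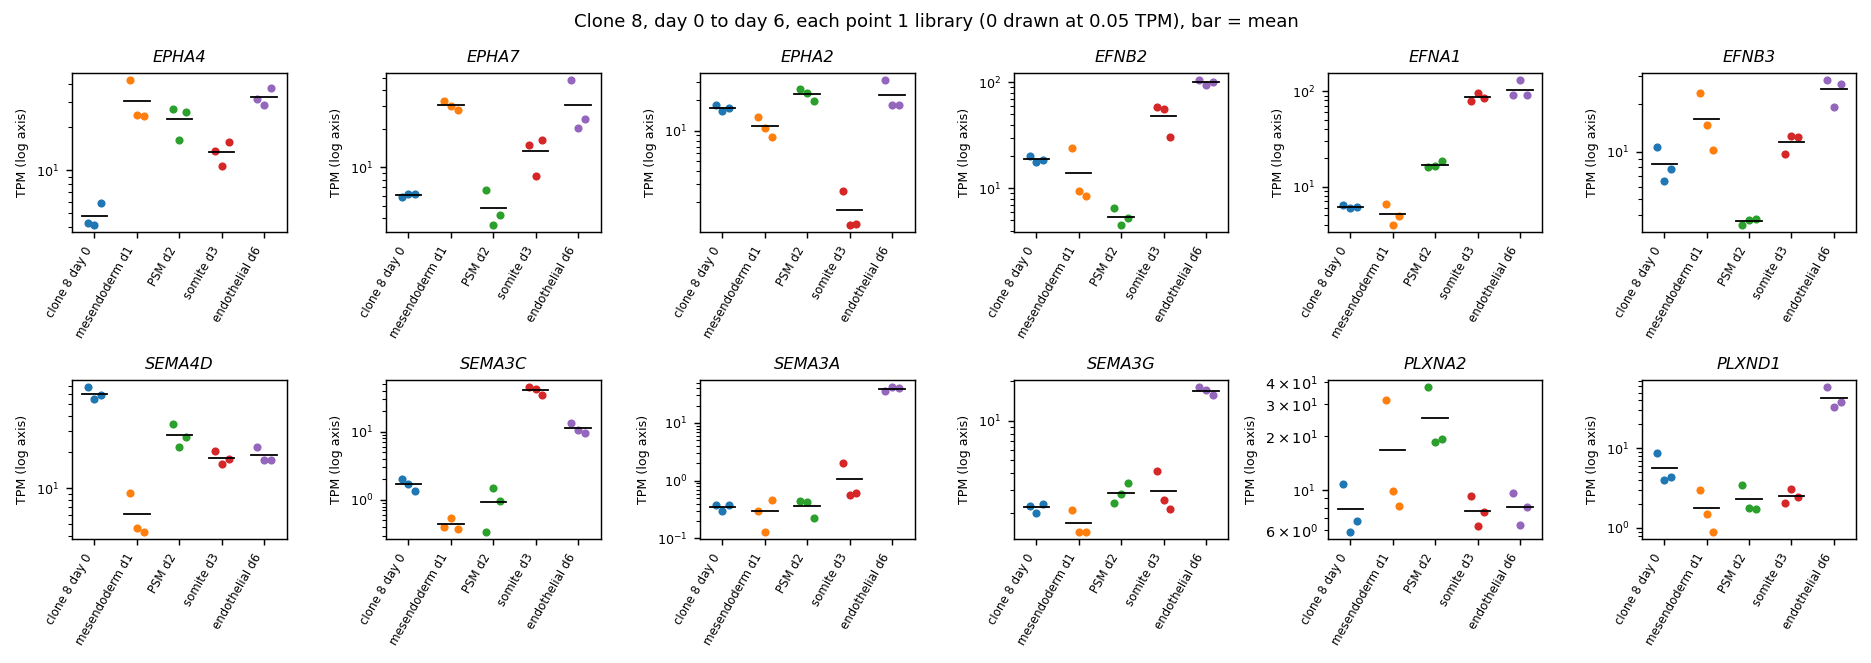
TPM per library (log axis) of 12 Eph receptors, ephrins, semaphorins and plexins in clone 8 at days 0, 1, 2, 3 and 6, with points for libraries and bars for group means. EPHA7 is high on days 1 and 6 and lower between them. SEMA4D drops on day 1, EFNB2 and EFNA1 climb from day 2 to day 6, and SEMA3A, SEMA3G and PLXND1 are high on day 6.

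In the endothelial group 7 of 8 ephrins and 4 of 7 class 3 semaphorins were higher than on day 0. Of 47 genes 27 passed, 19 higher and 8 lower, where 47.7% of all genes passed, 23.7% higher and 24.0% lower. The 19 higher genes are above the background share, with a median log2 change of 0.37 against -0.03. All 8 ephrins passed, 7 higher and EFNA2 lower (-0.58 ± 0.23). Of 20 semaphorins 7 were higher and 3 lower, of 11 Eph receptors 4 and 2, and of 8 plexins 1 and 2. All 27 calls were kept without mesendoderm replicate 1 and PSM replicate 1, and 20 were kept whichever library of either group was left out. The calls of EFNA2, EFNA3, EFNA4, EPHA3, PLXNB1, PLXNB2 and SEMA7A were lost in some repeat.

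EFNA1, an ephrin known from activated endothelium, was at 90.3, 129 and 90.7 TPM on day 6 and at 6.43, 6.02 and 6.10 TPM on day 0 (log2 change 4.15 ± 0.23, adjusted p = 2.2e-11). EFNB2, the arterial ephrin, was at 104, 95.2 and 101 TPM against 20.03, 17.9 and 18.6 TPM (2.39 ± 0.27, adjusted p = 5.1e-07). Its venous partner EPHB4 did not pass, at 17.3, 19.8 and 19.3 TPM against 31.2, 17.1 and 22.6 TPM, so the ratio of the group means of EFNB2 and EPHB4 moved from 18.8 to 23.6 TPM on day 0 to 100.1 to 18.8 TPM on day 6. EFNB1 (1.5 ± 0.20) and EFNB3 (1.48 ± 0.25) rose too. High levels of EFNA1 and EFNB2 were not particular to day 6. EFNA1 was at 79.1, 96.1 and 83.8 TPM on day 3. In neural progenitor replicates 2 and 3, EFNB2 averaged 77.5 TPM and EPHB4 7.97 TPM.

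SEMA3A, a secreted ligand that repels axons and endothelial cells through NRP1, was at 0.38, 0.30 and 0.38 TPM on day 0 and at 36.3, 41.4 and 40.2 TPM on day 6 (log2 change 7.09 ± 0.31, adjusted p = 1.1e-12). SEMA3D went from 1.71, 1.30 and 2.07 TPM to 21.8, 20.7 and 20.5 TPM (3.61 ± 0.25, adjusted p = 5.4e-10), and SEMA3G, known from arterial endothelium, from 2.26, 1.98 and 2.35 TPM to 18.04, 17.2 and 15.6 TPM (2.92 ± 0.24, adjusted p = 5.8e-09). None of these 3 overlapped with day 0. SEMA3C was higher too (2.70 ± 0.26), SEMA3F did not pass, and SEMA3B was lower, at 2.03, 2.29 and 2.76 TPM against 7.2, 6.5 and 7.5 TPM (-1.58 ± 0.29). PLXND1, the endothelial plexin, was at 58.5, 32.8 and 38.3 TPM against 8.62, 3.97 and 4.37 TPM (2.90 ± 0.31, adjusted p = 2.5e-07), and its ligand SEMA3E did not pass, at 11.9, 13.5 and 13.0 TPM against 10.17, 9.74 and 10.3 TPM, although every day 6 library was higher. PLXNB1 (-0.79 ± 0.24) and PLXNB2 (-0.68 ± 0.26) were lower. SEMA4D stayed below its day 0 level at 22.1, 17.0 and 17.1 TPM (-1.74 ± 0.18).

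Of the receptors, EPHA4 was again at 31.4, 28.8 and 37.5 TPM (2.76 ± 0.23, adjusted p = 8.7e-09) and EPHA7 at 47.6, 20.2 and 23.9 TPM (2.25 ± 0.26), both above every day 0 library, and EPHB6 rose by 2.12 ± 0.32. EPHA1 was lower, at 5.07, 3.75 and 4.12 TPM against 24.8, 18.3 and 21.2 TPM (-2.35 ± 0.31, adjusted p = 4.6e-06). EPHA10 had no count on day 6 and was at least 11.8-fold lower than on day 0, with a floor of 3 counts over the group. Both neuropilins were higher, NRP1 at 26.8 TPM on average (2.69 ± 0.19) and NRP2 at 76.7 TPM (3.14 ± 0.26). The 9 pluripotency markers summed to 714 to 833 TPM in these libraries, most of it LIN28A at 512 to 687 TPM. SOX2 was at 40.3 to 57.5 TPM and DPPA5 at 39.7 to 86.1 TPM, but POU5F1 at 0.20 to 2.66 TPM and NANOG at 0 to 0.97 TPM. Endoderm markers summed to 369 to 447 TPM, most of it APOA1 at 353 to 418 TPM, with SOX17 at 16.3 to 28.4 TPM and FOXA2 at 0.18 to 0.85 TPM. The part of other cells in these values was not tested.

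Against day 0 the libraries labelled cardiomyocyte gave 17 of 49 genes past the threshold, 10 higher and 7 lower, where 41.7% of 14248 genes passed, 22.9% higher and 18.8% lower. Without the 2 doubted libraries, in cardiomyocyte replicates 1 and 3 alone, 28 passed, 9 higher and 19 lower, where 61.7% of 14485 genes passed, 30.3% higher and 31.4% lower. All 9 higher and 7 of the lower genes were shared by both fits, EPHA5 lost its call, and 12 genes were newly lower. The median log2 change moved from 0.76 to -0.48, against 0.20 and -0.04 over all genes. TPM and the scaled counts differ most in these groups, since TPM stood lower by a median of 0.41 on the log2 scale in cardiomyocyte replicates 1 and 3 relative to day 0 and higher by 0.38 in neural progenitor replicates 2 and 3. No called gene changed direction between the scales.

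SEMA3A was at 24.9, 16.2 and 23.3 TPM in the libraries labelled cardiomyocyte replicates 1, 2 and 3 and at 17.9, 13.5 and 16.6 TPM in those labelled neural progenitor, high in all 6 against 0.30 to 0.38 TPM on day 0. Its log2 change in the cardiomyocyte group was 6.57 ± 0.47 as labelled and 6.84 ± 0.30 without the 2 libraries. SEMA3D separated the libraries, at 12.4, 0.85 and 11.2 TPM in the cardiomyocyte replicates and 12.3, 0.63 and 0.76 TPM in the neural ones, and was higher than on day 0 in the cardiomyocyte group by 2.66 ± 1.01 as labelled and by 3.21 ± 0.25 without the 2 libraries. EFNA1 (2.57 ± 0.46 and 2.94 ± 0.25) and EPHA7 (3.14 ± 0.31 and 2.92 ± 0.26) were higher in both fits. EPHA3 was higher by 5.56 ± 0.88 as labelled and by 3.97 ± 0.32 without the 2 libraries. In cardiomyocyte replicates 1 and 3, fibroblast markers summed to 3441 and 2543 TPM, against 158 to 329 TPM on day 0. Smooth muscle markers summed to 4815 and 3911 TPM there, against 218 to 263 TPM on day 0. POSTN was at 821 and 900 TPM and COL3A1 at 1436 and 832 TPM. SEMA3D was also high in fibroblasts, at 33.3 to 64.7 TPM. The part of other cells in these values was not tested.

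The 19 genes lower in cardiomyocyte replicates 1 and 3 were 8 semaphorins, 6 Eph receptors, 4 plexins and 1 ephrin. SEMA6A was at 0.79, 110 and 1.22 TPM in the libraries labelled cardiomyocyte replicates 1, 2 and 3, against 28.0, 18.3 and 17.4 TPM on day 0, and without the 2 libraries its log2 change was -3.95 ± 0.35. SEMA3E (-4.51 ± 0.29), SEMA5B (-4.10 ± 0.47), SEMA4D (-3.23 ± 0.26) and SEMA3F (-3.08 ± 0.36) passed in the same fit. SEMA6B held 1 count in replicates 1 and 3 together, a count ratio of 67.4 below day 0 with a 95% interval from 12.1 to 2664. EPHA1, at 0.40, 0 and 0.41 TPM, was lower in both fits (-5.83 ± 1.00 and -5.25 ± 0.50), as was the venous receptor EPHB4, at 7.08, 5.75 and 5.15 TPM (-1.74 ± 0.30 and -1.55 ± 0.28). EPHB1 had no count in replicates 1 and 3, at least 12.5-fold below day 0.

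Against day 0 the libraries labelled neural progenitor gave 25 of 49 genes past the threshold, 20 higher and 5 lower, where 42.7% of all genes passed, 23.8% higher and 19% lower. Without the 2 doubted libraries 40 passed, 32 higher and 8 lower, where 63.8% of all genes passed, 32.0% higher and 31.8% lower. All 25 calls were kept. Both counts of higher genes are above the background share, and the median log2 change was 1.76 as labelled and 1.92 without, against 0.20 and 0. By family, without the 2 libraries, 7 of 13 Eph receptors were higher and 3 lower, 7 of 8 ephrins higher and 0 lower, 13 of 20 semaphorins higher and 4 lower, and 5 of 8 plexins higher and 1 lower.

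EPHA5, a receptor of developing neurons, was at 0.12, 105 and 97.3 TPM in the libraries labelled neural progenitor replicates 1, 2 and 3 and at 0.35, 75.9 and 0.06 TPM in those labelled cardiomyocyte, against 0.06 to 0.29 TPM on day 0. It was high in 3 libraries, the neural progenitor replicates 2 and 3 and the library labelled cardiomyocyte replicate 2, and near 0 in the others. Its log2 change in the neural group was 8.34 ± 2.19 as labelled and 8.92 ± 0.50 without the 2 libraries. EPHA3 showed the same split, at 16.9, 210 and 201 TPM and at 19.8, 193 and 16.8 TPM (6.29 ± 0.90 and 6.79 ± 0.33). EPHB1, at 0.04, 44.8 and 29.7 TPM and at 0, 27.0 and 0 TPM, changed by 5.03 ± 1.78 and 5.62 ± 0.31. EPHA7 was higher in all 6 libraries than on day 0, at 43.2, 104 and 100.3 TPM and at 34.6, 80.8 and 35.8 TPM (3.5 ± 0.31 and 3.65 ± 0.26). The ephrin EFNB3 was at 20.6, 113 and 113 TPM in the neural libraries (2.83 ± 0.53 and 3.22 ± 0.26). Neuron markers were high in neural progenitor replicates 2 and 3. STMN2 was at 1492 and 1676 TPM, MAP2 at 1230 and 1143 TPM and DCX at 308 and 293 TPM. The progenitor markers PAX6 (360 and 339 TPM) and SOX1 (42.4 and 38.4 TPM) were read there too. The part of neurons in these changes was not tested.

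SEMA6A was at 1.26, 170 and 177 TPM in the libraries labelled neural progenitor and, without the 2 libraries, higher than on day 0 by 2.64 ± 0.26, the opposite direction from cardiomyocyte replicates 1 and 3. SEMA3C (3.65 ± 0.43 and 3.93 ± 0.28), SEMA3A (5.83 ± 0.46 and 5.39 ± 0.31) and PLXNA4 (3.66 ± 1.09 and 4.17 ± 0.57) were higher in both fits. Without the 2 libraries EFNA3 (3.17 ± 0.42), PLXNC1 (3.25 ± 0.50), SEMA5B (2.66 ± 0.29) and PLXNA3 (2.69 ± 0.42) were among the other higher genes. EPHA2 (-2.44 ± 0.61 and -3.79 ± 0.39), PLXND1 (-1.76 ± 0.61 and -3.07 ± 0.51) and EPHB4 (-1.67 ± 0.30 and -1.93 ± 0.29) were lower. EPHA1 had no count in neural progenitor replicates 2 and 3, at least 110-fold below day 0.

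**Figure D4:**
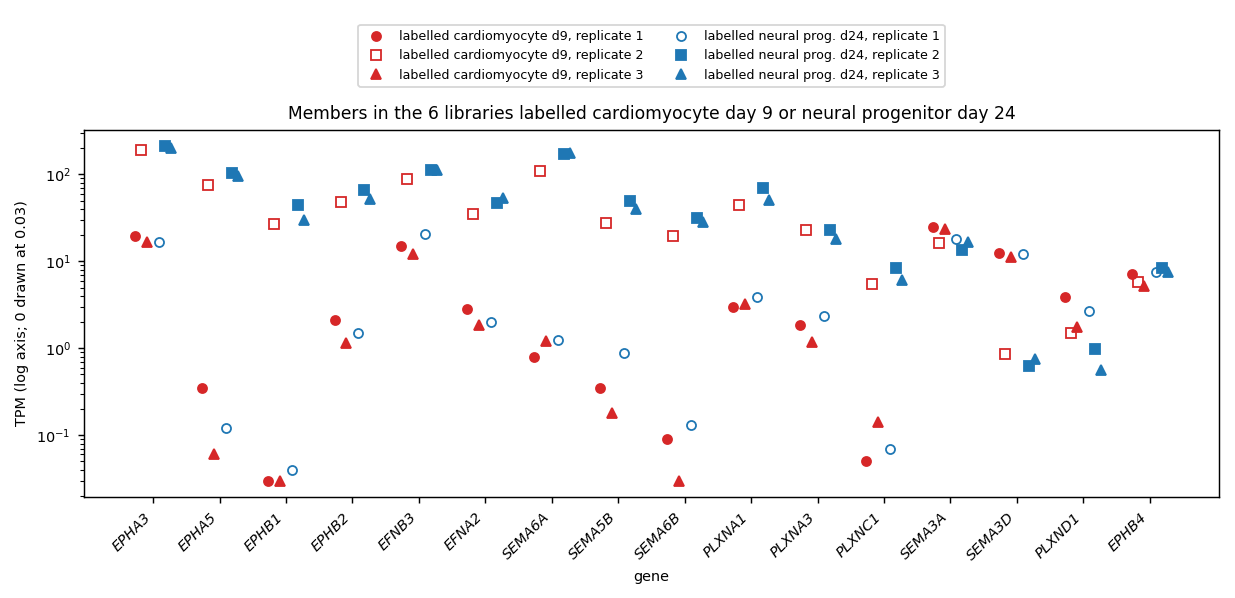
TPM per library (log axis, 0 drawn at 0.03 TPM) of 16 genes in the 3 libraries labelled cardiomyocyte (red) and the 3 labelled neural progenitor (blue), with circles, squares and triangles for replicates 1, 2 and 3 and open symbols for the 2 libraries that go against their labels. In genes such as EPHA5, EPHB1 and SEMA6A the open red square lies with the filled blue symbols and the open blue circle with the filled red ones.

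Compared directly as labelled, the neural progenitor and cardiomyocyte groups gave no call. The edgeR test passed 0 of 49 genes and 0% of 14248, with 3 of the 49 at an unadjusted p under 0.05 (753 genes in all), and DESeq2 and limma on log2(TPM + 1) also passed 0, with 3 of these genes each and 934 and 1435 genes in all at an unadjusted p under 0.05. Without the 2 libraries, which leaves 2 against 2, 40 genes passed, 34 higher and 6 lower in the neural libraries, where 63.7% of all genes passed, 31.8% higher and 31.9% lower. The 34 of 49 higher genes exceed the background share and their median log2 change over the tested genes was 2.20 against 0. In that fit 8 Eph receptors, 5 ephrins, 14 semaphorins and 7 plexins were higher, and 2, 1, 2 and 1 lower. The largest differences were SEMA6A (6.59 ± 0.38), SEMA5B (6.76 ± 0.47), EPHA5 (9.04 ± 0.64), PLXNC1 (5.36 ± 0.75), EPHB2 (4.42 ± 0.31) and SEMA3E (4.31 ± 0.31) among the higher genes with more than 3 counts in each group. EPHB1, without counts in cardiomyocyte replicates 1 and 3, was at least 668-fold higher. The 6 genes lower in the neural libraries were SEMA3D (-4.93 ± 0.37), PLXND1 (-2.44 ± 0.56), EPHA2 (-2.38 ± 0.42), EFNA1 (-1.46 ± 0.28), SEMA3A (-1.45 ± 0.25) and EPHA1, which had no count in neural progenitor replicates 2 and 3. The TPM ratio of neural to cardiac libraries stood 0.78 (log2) above the scaled counts over all genes.

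The levels of 3 known ligand and receptor pairs, from a longer list, were set side by side by group mean. SEMA4D and PLXNB1 were at 1.19 and 6.47 TPM in fibroblasts, 61.1 and 15.2 TPM on day 0, 6.05 and 7.90 TPM on day 1, 17.9 and 22.5 TPM on day 3, and 56.7 and 26.0 TPM in neural progenitor replicates 2 and 3. SEMA3E and PLXND1 were at 0.06 and 33.8 TPM in fibroblasts, 10.1 and 5.65 TPM on day 0, 13.1 and 2.51 TPM on day 3 and 12.8 and 43.2 TPM on day 6. SEMA6A and PLXNA2 were at 0.01 and 34.9 TPM in fibroblasts, 21.3 and 7.82 TPM on day 0, 6.03 and 25.03 TPM on day 2, and 173 and 42.7 TPM in neural progenitor replicates 2 and 3. In fibroblasts these 3 receptors were read with little of the ligand paired with them here. Other secreted semaphorins were high there, SEMA3C at 79.4 TPM and SEMA3D at 46.3 TPM. Both partners were above 10 TPM for SEMA3E and PLXND1 on day 6. For SEMA4D and PLXNB1 this held on day 0, on day 3 and in neural progenitor replicates 2 and 3. For SEMA6A and PLXNA2 it held in those neural progenitor replicates and on day 1, at 10.8 and 16.6 TPM.

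Genes that work beside these families changed as follows. Of 23 netrin, slit and RGM ligands and their receptors, other axon guidance cues, 17 were tested between clones and fibroblasts (8 higher, 6 lower, where 74.6% of all genes passed). In clone 8, 18 were tested, with 3 higher and 10 lower on day 1 (40.1% of all genes passed), 6 and 5 on day 2 (26.2%), 10 and 1 on day 3 (51.2%), and 8 and 5 on day 6 (47.7%). In the neural progenitor group 8 were higher and 1 lower of 21 as labelled (42.7%), and 16 and 1 without the 2 libraries (63.8%), while the cardiomyocyte group had 4 and 1 as labelled (41.7%) and 5 and 11 without (61.7%). DCC, the netrin receptor, averaged 36.1 TPM in neural progenitor replicates 2 and 3 against 0.06 TPM on day 0 (8.65 ± 0.42), and SLIT1, a repellent ligand of ROBO receptors, 87.0 against 3.15 TPM (4.41 ± 0.38). Of 28 semaphorin co-receptors and effectors tested, 10 were higher and 15 lower in the clones than in fibroblasts. Of 27 tested in clone 8, 5 were higher and 9 lower on day 1, 3 and 7 on day 2, 15 and 2 on day 3, and 7 and 10 on day 6. Leaving out the 2 doubted libraries, 15 of 28 were higher and 7 lower in the neural progenitor group, and 7 and 12 in the cardiomyocyte group; as labelled the counts were 8 and 2, and 5 and 2, of 27. Of 24 Eph and ephrin effectors, 9 were higher and 9 lower in the clones, and of 23 tested in clone 8, 8 and 5 were on day 1, 4 and 7 on day 2, 12 and 2 on day 3, and 6 and 3 on day 6. With the 2 libraries left out, 12 of 24 were higher and 3 lower in the neural progenitor group, and 6 and 8 in the cardiomyocyte group; as labelled the counts were 6 and 1, and 5 and 4. The shares of all genes that passed are those given with the netrin list.

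**Figure D5:**
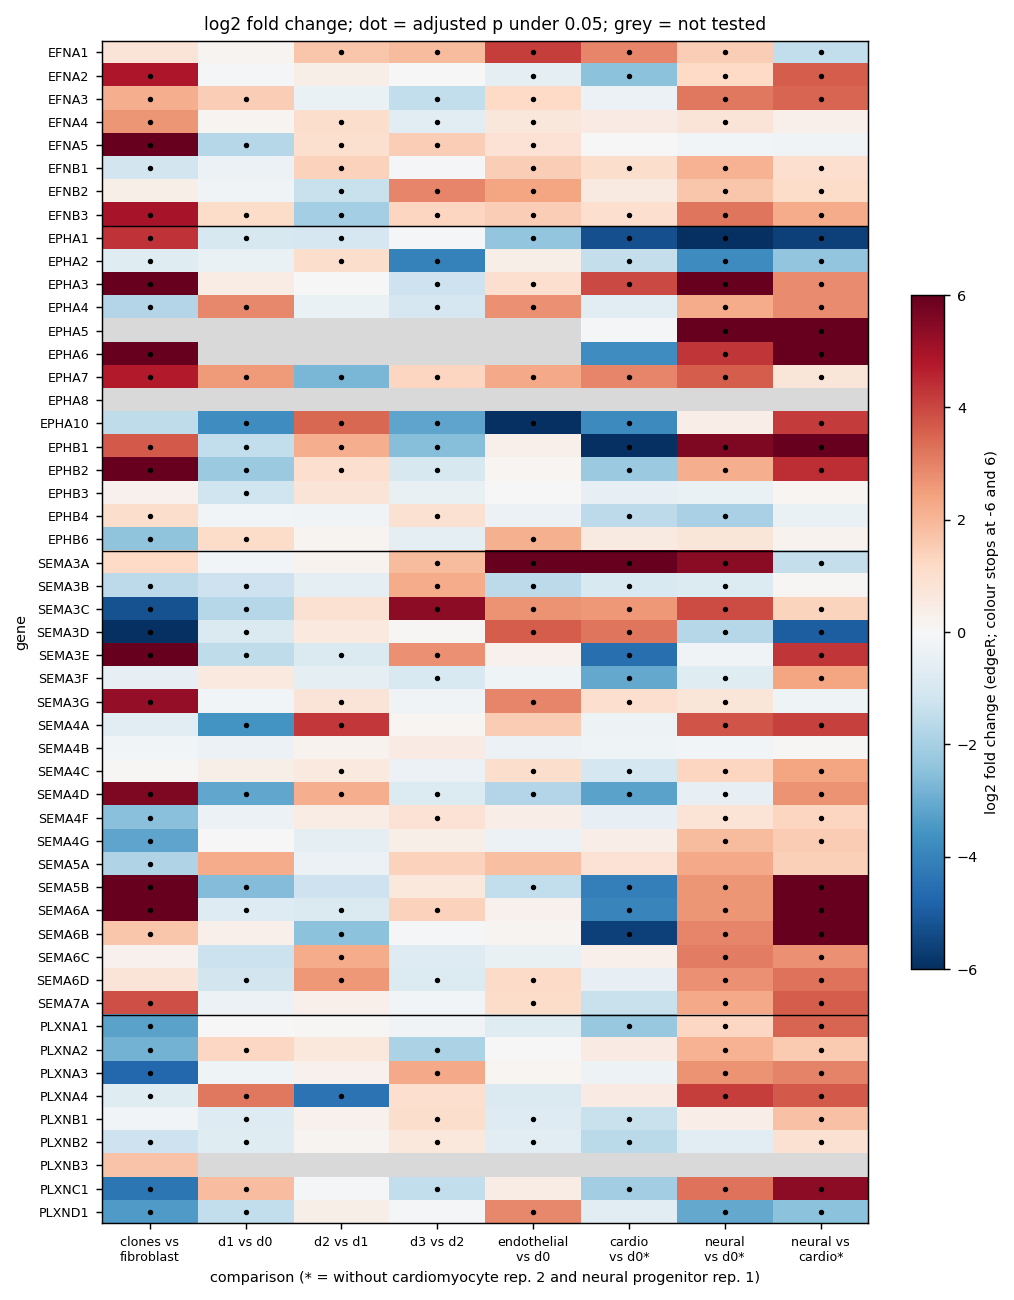
Log2 change (colour, stopped at -6 and 6) of the 51 genes (rows) in 8 comparisons (columns, the last 3 without the 2 doubted libraries), with a dot where the adjusted p is under 0.05 and grey where the gene was not tested. The 7 plexins that passed are blue in the clones against fibroblasts, 5 are red and PLXND1 is blue in neural progenitor replicates 2 and 3 against day 0, and ephrins are mostly red at day 6.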

How the data were processed

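The authors deposited estimated counts per gene and TPM for 36 libraries. Per the submitters' processing notes, bcl2fastq, Bowtie 1.2.3, RSEM 1.2.3 and Sscrofa11.1 were used, and per the labels' protocols RNA came from a QIAGEN RNeasy Plus Mini kit and went into LM-seq (ligation-mediated sequencing) libraries. Whether counting used strand is not given in the sources used here. Overlapping genes may therefore share reads. The deposited estimated counts were rounded, which moved them by 0.00661% on average. TPM as deposited by the authors gives all levels.

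Tests were run with edgeR 4.0.16 in R 4.3.3 (TMM scaling, filterByExpr with a minimum count of 10, quasi-likelihood test, Benjamini-Hochberg over all genes tested, threshold 0.05). SE is the log2 change divided by the square root of F. Fibroblasts and clones 1 to 3 made 1 fit of 15 libraries, in which the mean of the 3 clones was compared. Days 0 to 6 of clone 8 made another fit of 15, and all 21 clone 8 libraries the last, which was repeated with 19. Alternatives used DESeq2 1.42.0 and limma 3.58.1. The fitting code was tested on simulated data. No replicate pair was identical or within sampling noise. Clone 3 replicates 2 and 3 were much more alike than the other clone 3 pairs. The chi-square per degree of freedom between their counts was 5.00, against 44.6 to 66.9 for the other pairs of clone 3. The labels give no reason, and a repeat with these 2 libraries summed is given below. Same-numbered libraries of different groups correlated at a median of -0.003, 0.081 and 0.010 in the 3 fits, and at lowest -0.12, -0.06 and -0.74. For libraries with other numbers the medians were 0.002, -0.061 and -0.005. The main tests did not use the replicate number, and a repeat with it as a block is given below.

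The genes, the pathway and marker lists and the 2 doubted libraries were chosen with earlier results of these data known, and the genes in the plots after their values were seen. Genes named with values in each library were those with up to 4 of the largest changes per direction and comparison at a mean of at least 5 TPM, plus the most abundant of each family; others were named after their values were seen. The repeats without mesendoderm replicate 1 and PSM replicate 1 were added after seeing the data. Sequences were not used here.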

Additional observations from a re-analysis of the deposited data

Results flagged for a closer look

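In groups of 4 libraries, 14 of 99 combinations of gene and group had a library far from the other 3 (Dixon's test at the 95% level). The rate of about 1 in 20 at this level holds for normally distributed values. The genes were those named in the text, and the share over all genes was not counted, so the 14 cannot be set against that rate. In 5 of the 14 the other 3 libraries were at exactly 0, so that any count meets the criterion. SEMA5B in fibroblasts and EPHA5 in clone 3 were close to this, with the others at most at 0.02 and 0.01 TPM. In fibroblasts, EFNB3 was at 0 TPM in replicate 1 and at 0.35 to 0.38 TPM in the others. Near 0 in the other replicates, SEMA6A was at 0.05 TPM in replicate 4, SEMA3E and EPHA3 at 0.23 TPM each in replicate 3, SEMA5B at 0.16 TPM in replicate 3, SEMA3G at 0.12 TPM in replicate 2 and EPHB1 at 0.10 TPM in replicate 1. SEMA3B was at 33.4 TPM in fibroblast replicate 4 and at 22.9 to 24.3 TPM in the others. In clone 2, EFNA5 was at 11.3 TPM in replicate 4 and at 15.02 to 15.7 TPM in the others. In clone 3, EPHA3 was at 0.42 TPM in replicate 1 (others 0.63 to 0.66), PLXNA3 at 1.46 TPM in replicate 1 (others 0.65 to 0.68), EPHA5 at 0.09 TPM in replicate 3 (others at most 0.01), PLXNB2 at 61 TPM in replicate 4 (others 66.1 to 66.3) and SEMA4D at 87 TPM in replicate 4 (others 68.3 to 68.8).

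The change from fibroblasts differed in sign between clones for EFNB1 and SEMA6D. EFNB1 changed by -1.74, 0.08 and -1.65 (log2) in clones 1, 2 and 3, a range of 1.81, and the difference among clones passed (adjusted p = 0.00032). SEMA6D changed by -0.32, 2.25 and 0.33, a range of 2.57 (adjusted p = 0.01).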

How the results depend on the processing

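Counts of genes past the threshold stayed within 1.5 times under DESeq2, RLE scaling, no filter, limma with either pseudocount and the replicate block, which gave 34, 11, 27, 24, 28, 27, 15, 22 and 0 genes in the order of the text, among clones second and neural against cardiac last. A library was best matched by its own replicate number in 2 of 15 (fibroblasts and clones), 10 of 15 (days 0 to 6) and 12 of 21 cases (all of clone 8). With all 21 clone 8 libraries in the fit, days 1, 2, 3 and 6 gave 7, 9, 10 and 16 genes. Only the groups compared gave 9 (cardiomyocyte) and 15 (neural progenitor). Without the 2 doubted libraries the last 3 counts were 28, 40 and 40. With clone 3 replicates 2 and 3 summed, 9 genes differed among clones. Leaving out each library in turn gave 34 to 38 genes (clones against fibroblasts), 9 to 16 (among clones), 20 to 29, 18 to 24, 22 to 27 and 20 to 25 (days 1, 2, 3 and 6), 13 to 25 (cardiomyocyte), 14 to 29 (neural progenitor) and 0 to 26 (neural against cardiac). The count among clones was 9 without clone 2 replicate 1, 3 or 4 or clone 3 replicate 2 or 3. The neural count was 14 and 15 without day 0 replicate 2 or 3, and neural against cardiac gave 26 without cardiomyocyte replicate 2 and 10 without neural progenitor replicate 1. EPHA5 reversed in the cardiomyocyte group, to -0.10 without cardiomyocyte replicate 2 and to -0.12 without both doubted libraries, and leaving out each library gave -0.10 to 7.63. Of 3139 single-gene values, 2737 kept their call, 400 lost it and 2 reversed. The causes were not tested. Genes under about 1 TPM rest on few counts, most of all in fibroblast replicates 3 and 4 and neural progenitor replicate 3.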
